A study of Mus musculus with 9 samples.

Results

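The circRNAs of 58 genes, most of which act in DNA replication, the replication checkpoint or DNA repair, were followed from dividing progenitors to newborn neurons of the mouse cortex. The list also held Mki67, Atad2 and Helz, which were grouped apart from these roles but are counted in the set. For short, the set is called the replication and repair circRNAs. A circRNA belonged to the set when its parental gene was on the list. The parental gene was taken from the study's circRNA list for 39 circRNAs and from the GENCODE vM1 annotation of mm9, as the gene containing the circRNA on the same strand, for the other 38. This gave 77 of the 5281 circRNAs in the count table, from 34 of the 58 genes. The 24 genes without a circRNA in the table were Pole2, Polq, Polk, Mcm2, Mcm3, Mcm7, Mcm10, Orc3, Orc4, Orc5, Cdc45, Rfc3, Brca2, Blm, Fancd2, Fancm, Rad54l, Chek1, Chek2, Msh6, Rif1, Atad5, Lig1 and Lig4.

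Cells came from the lateral cortex of C57BL/6 embryos at embryonic day (E) 14.5, from mice heterozygous for both a Btg2-RFP and a Tubb3-GFP reporter, and were FAC-sorted into proliferative progenitors (PP, RFP- and GFP-), differentiative progenitors (DP, RFP+ and GFP-) and newborn neurons (N, GFP+). A population was therefore defined by the activity of the Btg2 and Tubb3 reporters, and how many embryos were combined in a library was not given in the sources used here. Each population had 3 libraries, described as biological replicates, of total RNA treated with RNase R, an exonuclease that degrades linear RNA. Library totals ran from 2962787 to 8015311 counts, of which 27 high-count entries took 94.7% to 98.2%, and the counts outside these entries ran from 83572 (PP replicate 3) to 287983 (N replicate 2). Across circRNAs, PP replicate 3 had Spearman correlations of 0.637 and 0.651 with the other PP libraries (0.908 between those) and N replicate 1 of 0.762 and 0.813 with the other N libraries (0.941), so results are also given without these 2 libraries.

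A circRNA forms when the donor at the end of a downstream exon is joined to the acceptor of an upstream exon, and the joint is called the backsplice junction. Genes of the replication machinery are transcribed mostly in cells that prepare for or pass through S phase, many of them through E2F factors, and their mRNAs decline when cells leave the cell cycle. PP and DP divide, whereas N are postmitotic.

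The backsplice junctions of the circRNAs on which the comparisons turn are shown here so that each can be recognised in other data. In each line the last 20 bases of the circle's last exon are in lower case and the first 20 bases of its first exon are in capitals, read 5′ to 3′ on the gene's strand from mm9.
Mcm5: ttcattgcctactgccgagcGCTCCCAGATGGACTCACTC
Mcm6: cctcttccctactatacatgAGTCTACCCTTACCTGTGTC
Rrm1: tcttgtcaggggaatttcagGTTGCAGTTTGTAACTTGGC
Top2a: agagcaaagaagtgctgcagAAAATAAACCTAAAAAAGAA
Timeless: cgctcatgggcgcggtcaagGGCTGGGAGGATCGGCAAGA
Mki67: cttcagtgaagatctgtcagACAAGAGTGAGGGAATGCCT
Msh3: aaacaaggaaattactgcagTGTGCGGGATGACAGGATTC
Helz: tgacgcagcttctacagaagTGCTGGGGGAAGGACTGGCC
The first 6 belong to circRNAs that fell in N, and the Msh3 and Helz junctions belong to circRNAs that did not pass the test in any comparison. On the genome, 75 of the 77 circles were flanked by AG before the first exon and GT after the last, the dinucleotides of the usual splice sites. All 77 began and ended at annotated exon ends. The exceptions to AG and GT were Msh3 CiCo_mm9_circ_001722, with AT, and Orc1 CiCo_mm9_circ_004245, with AA.

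The 77 circRNAs lay in 48 separate regions, and 14 genes had 1 circRNA. Msh3 had the most (8), then Topbp1 (6) and Wrn (5). A circRNA held a median of 3 exons (range 2 to 14), its median counted length was 478 bases (467 over all circRNAs in the table), and it spanned a median of 5097 bases of the genome (5338 over all). The next features could be read for the 5076 circRNAs of the table, these 77 included, that matched a chain of annotated exons. None of the 77 was made of a lone exon, as were 9.22% of the 5076, and 10 (13.0%) started at exon 2, against 27.4%. The introns beside the circles were shorter, with a median of 2596 bases before and 2327 bases after, against 7160 and 5368.5 over the 5076. The circle lay wholly within coding sequence for 71 (92.2%), against 80.3% of the 5076. These features are given as descriptions without a test, since circRNAs of a gene share exons and introns.

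Counts covered every read on the parts of a circle that the authors kept, not the junction alone, so linear RNA that survived RNase R would be counted with the circle, and its share was not tested. Overlapping circRNAs may share reads, and how reads on shared exons were assigned was not given in the sources used here. In all 35 pairs with 1 circle inside another, the inner never exceeded the outer in any of the 9 libraries. The counted length equalled that of the exons plus 1 base per exon for 64 of the 77 (83.1%, against 84.8% of all). For 12 (15.6%, against 9.88% of all) it was longer and matched the exons plus 1 or 2 introns. The introns were read from these lengths alone, so they say which parts were counted and not that an intron is in the circle. These 12 belonged to Mcm5, Mcm6, Mki67, Prim1, Timeless, Top2a and Topbp1. For Brip1, 4 exons had been left out.

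Summed over 1 circRNA per gene, the replication and repair circRNAs were several times more abundant in the progenitors than in N. Levels are given in CPM, counts scaled to a common effective library size, and the circRNA of a gene with the highest mean CPM is called its lead circRNA. The 34 lead circRNAs summed to 229, 228 and 162 CPM in the PP libraries, to 165, 185 and 147 CPM in DP, and to 28.8, 35.5 and 31.4 CPM in N. Group means were 206 ± 38.2, 166 ± 19.0 and 31.9 ± 3.37 CPM (SD, n = 3 each). The N libraries lay below every progenitor library, whereas PP and DP overlapped. Fewer cells of a type and less RNA per cell cannot be told apart in such bulk libraries.

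**Figure D1:**
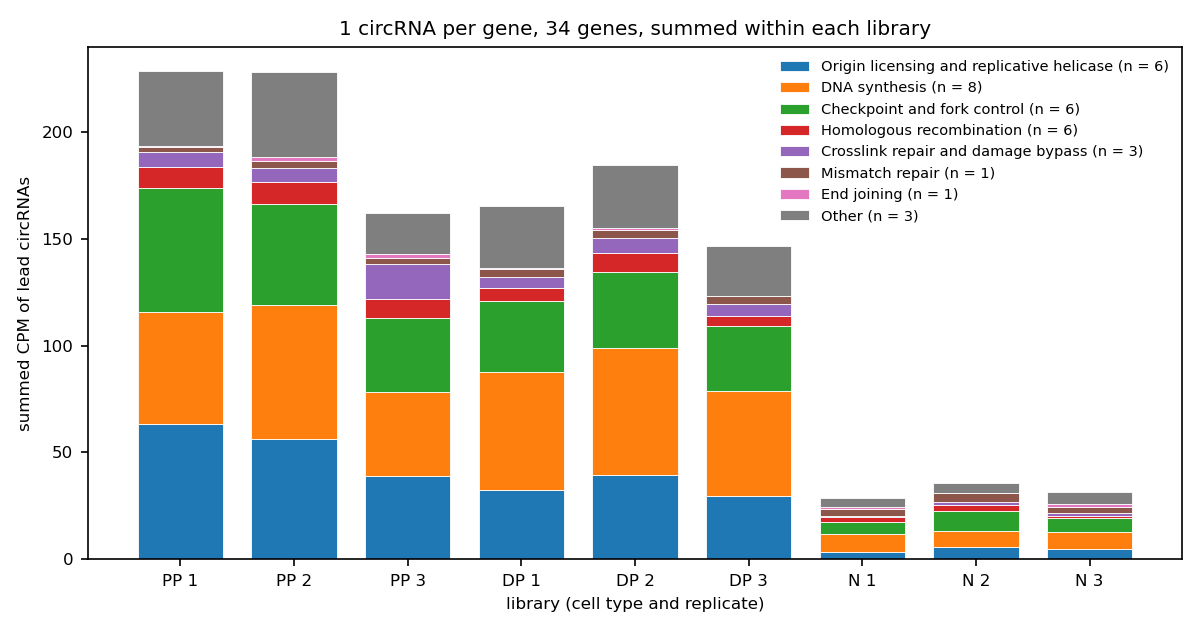
Summed CPM of the 34 lead circRNAs in each of the 9 libraries (x axis), stacked by the role of the gene, on a linear axis from 0. The 3 N bars stand at 28.8 to 35.5 CPM and the 6 progenitor bars at 147 to 229 CPM.

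Per kilobase of counted length (RPKM), the lead circRNAs ranked at a median percentile of 28.9 among all circRNAs in the table (range 0.606 to 77.0), and 8 of the 34 stood above the median of the table. The order differed between populations. In PP the highest means were those of Mcm6 (18.9 ± 6.84 RPKM), Mki67 (18.1 ± 5.63 RPKM) and Rrm1 (17.7 ± 4.95 RPKM; SD, n = 3 each), which lay within 1 SD of each other. In DP they were those of Top2a (20.7 ± 1.70 RPKM), Rrm1 (19.2 ± 2.31 RPKM) and Mki67 (17.2 ± 2.47 RPKM), where neighbours differed by less than their SD. In N they were those of Prim2 (5.53 ± 1.76 RPKM), Pold3 (4.65 ± 0.805 RPKM) and Orc2 (4.42 ± 2.10 RPKM), whose neighbours also differed by less than the larger SD. The lead circRNA of Orc1 had the lowest mean in DP (0.659 RPKM) and no count in N.

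Of the 77 circRNAs, 56 from 26 genes had enough counts to be tested in a fit over all circRNAs (edgeR's quasi-likelihood test, Benjamini-Hochberg adjusted p under 0.05). The count filter could be passed through the progenitor libraries alone, so the tested circRNAs are not a neutral sample of the set. Between DP and PP none was called, against 0.386% of the 4406 tested circRNAs called lower and 1.48% called higher in DP. The median log2 fold change was -0.33 (-0.06 over all tested). With DESeq2 the count was 0 as well. In the edgeR fit 4 had an unadjusted p under 0.05, all lower in DP, as had 5.22% of all tested circRNAs in that direction: Mcm4 CiCo_mm9_circ_002279, Mcm6, Pola1 CiCo_mm9_circ_006954 and Dtl. The smallest adjusted p was 0.108, for Mcm4 (log2 fold change -1.07 ± 0.31, SE). Without PP replicate 3 and N replicate 1 the count was 10 of 61 tested, all lower in DP, from Mcm4, Mcm6, Atad2, Rfc1 and Topbp1, in a fit that called 231 of all 4714 tested circRNAs lower and 428 higher in DP, and without PP replicate 3 alone it was 1 (Mcm4).

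Between N and DP, 38 of the 56 fell in N and none rose, where 9.8% of all tested circRNAs were called lower and 9.03% higher. The 38 came from 20 genes. The median log2 fold change was -2.20, against -0.02 over all tested. Between N and PP, 42 of the 56, from 22 genes and 29 regions, fell and none rose, where 14.4% of all tested were called lower and 13.6% higher, and the median was -2.83 against -0.10. Both medians were the same with the 1 tested circRNA that had no count in N set to its bound. Without PP replicate 3 and N replicate 1, 39 of 61 were lower in N than in DP and 45 than in PP, in a fit that called 816 of all 4714 tested circRNAs lower in N than in DP and 970 lower than in PP. All 38 that fell from DP to N also had a lower level in N than in PP by the test, 4 passed between N and PP alone, and 14 passed in neither. Without a filter on counts, so that all 77 entered the fit, 42 were lower in N than in DP (9.39% of all 5281 circRNAs) and 50 were lower in N than in PP (13.8% of all), and none was higher.

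Across all 77, each N library lay below each DP library for 48 (62.3%), against 20.5% of all circRNAs, and below each PP library for 51 (66.2%), against 18.5%. For none of the 77 did all N libraries lie above all DP or all PP libraries, as happened for 17.4% and 16.9% of all circRNAs. Each DP library lay below each PP library for 10 (13.0%, against 8.75% of all) and above for 2 (2.6%, against 10.1%). Among circRNAs counted on exons only, 27 of 44 tested fell from DP to N and 31 of 44 were lower in N than in PP. Among those counted with introns 11 of 12 did in each comparison, where 9.8% and 14.4% of all tested circRNAs were called lower. The shares among all circRNAs counted in each way are not given, and the 12 include overlapping circles of Topbp1, Prim1 and Timeless. The counts of these groups are therefore not set against each other.

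**Figure D2:**
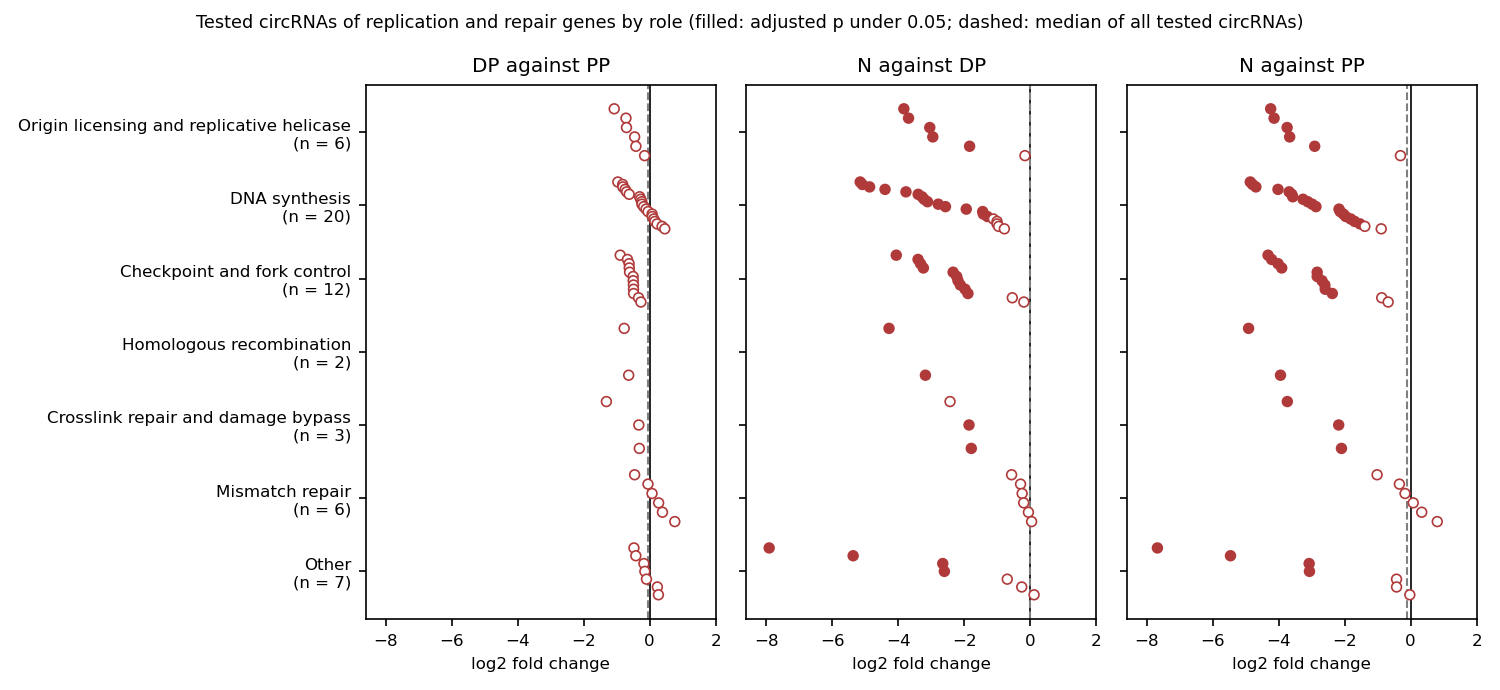
Log2 fold change (x axis) of the 56 tested circRNAs in the 3 comparisons, arranged by role of the gene, with filled points for an adjusted p under 0.05 and a dashed line at the median of all 4406 tested circRNAs. No point is filled between DP and PP, 38 are filled between N and DP and 42 between N and PP, all of them below 0; the leftmost of the last 2 comparisons is an Mki67 circRNA with no count in N, whose plotted value is set by the fit.

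Among genes of origin licensing and the replicative helicase, 5 of 6 tested circRNAs were lower in N than in DP and the same number than in PP. Over all tested circRNAs, 9.8% and 14.4% were called lower in these comparisons, which holds beside the counts by role below as well. Circles of a gene may share reads, so such counts are not of independent units. Mcm4, Mcm5 and Mcm6 encode subunits of the helicase that opens DNA ahead of the fork. The Mcm6 circRNA (CiCo_mm9_circ_000055, chr1:130244946-130250147, mm9, exons 3 to 7 of 17 in GENCODE vM1, counted with 1 intron) had 26.2, 22 and 12.1 CPM in PP, 12.5, 15.3 and 9.81 CPM in DP and 1.33, 1.75 and 1.31 CPM in N. PP and DP overlapped and all N libraries were lower, with a log2 fold change of -3.04 ± 0.40 (SE) from DP to N (edgeR adjusted p = 0.000119).

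The Mcm5 circRNA (CiCo_mm9_circ_006298, chr8:77643156-77647003, exons 10 to 14 of 18, counted with 2 introns) showed the same order, with 19.5, 19.4 and 15.3 CPM in PP, 10.9, 15.5 and 13.4 CPM in DP and 0.443, 1.40 and 0.817 CPM in N. The fall from DP to N was -3.68 ± 0.39 on the log2 scale (edgeR adjusted p = 3.78e-05). The lead Mcm4 circRNA (CiCo_mm9_circ_002279, chr16:15627742-15629760, exons 11 to 13 of 16) had 11.2, 10.2 and 6.51 CPM in PP, 5.66, 4.19 and 3.60 CPM in DP and 1.33, 1.16 and 1.31 CPM in N. Here the 3 populations did not overlap, although the difference between DP and PP missed the threshold, and the N libraries were lower than PP by -2.91 ± 0.38 on the log2 scale (edgeR adjusted p = 6.24e-05).

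Cdc6, which loads the helicase onto origins, and Orc1, the largest subunit of the origin recognition complex, had few counts. The Cdc6 circRNA had 12, 11 and 7 counts in PP, 18, 18 and 12 in DP and 2 in all of N, a DP to N ratio of 16.3 (95% counting interval 4.27 to 138). Its fall from DP to N passed the test (edgeR adjusted p = 0.0015). Both Orc1 circRNAs were below the filter and had no count in N: CiCo_mm9_circ_004244 was at least 8.36-fold lower in N than in PP, taking 3 counts over the group as the floor. Orc2, another subunit of the complex, was not called, with 1.19 ± 0.682 CPM in PP, 1.17 ± 0.485 CPM in DP and 0.932 ± 0.443 CPM in N (SD, n = 3 each), overlapping groups and no call.

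Of 20 tested circRNAs of DNA synthesis genes, 15 fell from DP to N and 18 were lower in N than in PP. Top2a, the topoisomerase that untangles replicated DNA, had 4 circRNAs, all of which fell. The lead one (CiCo_mm9_circ_001215, chr11:98858043-98862755, exons 25 to 30 of 36, counted with 2 introns) had 15.8, 21.0 and 12.1 CPM in PP, 24.0, 23.7 and 20.6 CPM in DP and 1.33, 0.349 and 0.653 CPM in N. PP and DP overlapped, and N was lower than DP by -5.15 ± 0.45 on the log2 scale (edgeR adjusted p = 1.3e-05).

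Rrm1, the large subunit of ribonucleotide reductase, which makes the nucleotides for DNA, had 3 circRNAs and all of them fell. Its lead circRNA (CiCo_mm9_circ_005655, chr7:109608805-109612295, exons 13 to 16 of 19) had 10.6, 13.3 and 7.44 CPM in PP, 11.7, 12.5 and 9.81 CPM in DP and 0.886, 1.05 and 0.490 CPM in N. PP and DP overlapped, and N was lower than DP by -3.76 ± 0.40 on the log2 scale (edgeR adjusted p = 4.21e-05).

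Pold3, a subunit of polymerase delta, fell less. The lead Pold3 circRNA (CiCo_mm9_circ_005637, chr7:107236574-107241991, exons 9 to 11 of 12) had 3.90, 4.53 and 3.25 CPM in PP, 4.08, 3.08 and 2.98 CPM in DP and 1.33, 1.16 and 1.63 CPM in N. The groups of progenitors and neurons did not overlap, with a log2 fold change of -1.30 ± 0.36 from DP to N (edgeR adjusted p = 0.0199), a call that was lost without DP replicate 1 (-1.15), DP replicate 2 (-1.37) or N replicate 2 (-1.13).

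Prim2, the regulatory subunit of primase, had the 1 lead circRNA of the DNA synthesis genes that passed in no comparison. This circRNA (CiCo_mm9_circ_000271, chr1:33685240-33687278, exons 6 and 7 of 14) had 1.56, 1.78 and 4.18 CPM in PP, 2.15, 1.97 and 2.11 CPM in DP and 1.77, 1.16 and 0.980 CPM in N. N overlapped PP but not DP, and the log2 fold change from DP to N was -0.78 ± 0.44 (edgeR adjusted p = 0.272). The other 2 circRNAs of Prim2, from another region, were lower in N than in PP (log2 fold changes -1.97 ± 0.66 and -1.82 ± 0.62, edgeR adjusted p = 0.0387 and 0.0418). Both calls were lost without PP replicate 1, PP replicate 3, N replicate 2 or N replicate 3, where the values ran from -1.40 to -1.99, and the second also without DP replicate 1 (-1.82).

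The lead circRNAs of Pole (the catalytic subunit of polymerase epsilon), Pola1 (that of polymerase alpha), Rfc1 (a subunit of the clamp loader) and Prim1 (the catalytic subunit of primase) all fell from DP to N. Their log2 fold changes were -3.11 ± 0.50 for Pole, -1.94 ± 0.38 for Pola1, -1.42 ± 0.40 for Rfc1 and -1.44 ± 0.43 for Prim1, with edgeR adjusted p of 0.000568, 0.0021, 0.023 and 0.0317. The calls of Rfc1 and Prim1 were lost without DP replicate 2 (-1.28 and -1.24), DP replicate 3 (-1.44 and -1.49), N replicate 2 (-1.61 and -1.32) or N replicate 3 (-1.45 and -1.48), whereas those between N and PP were not lost without any 1 library.

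**Figure D3:**
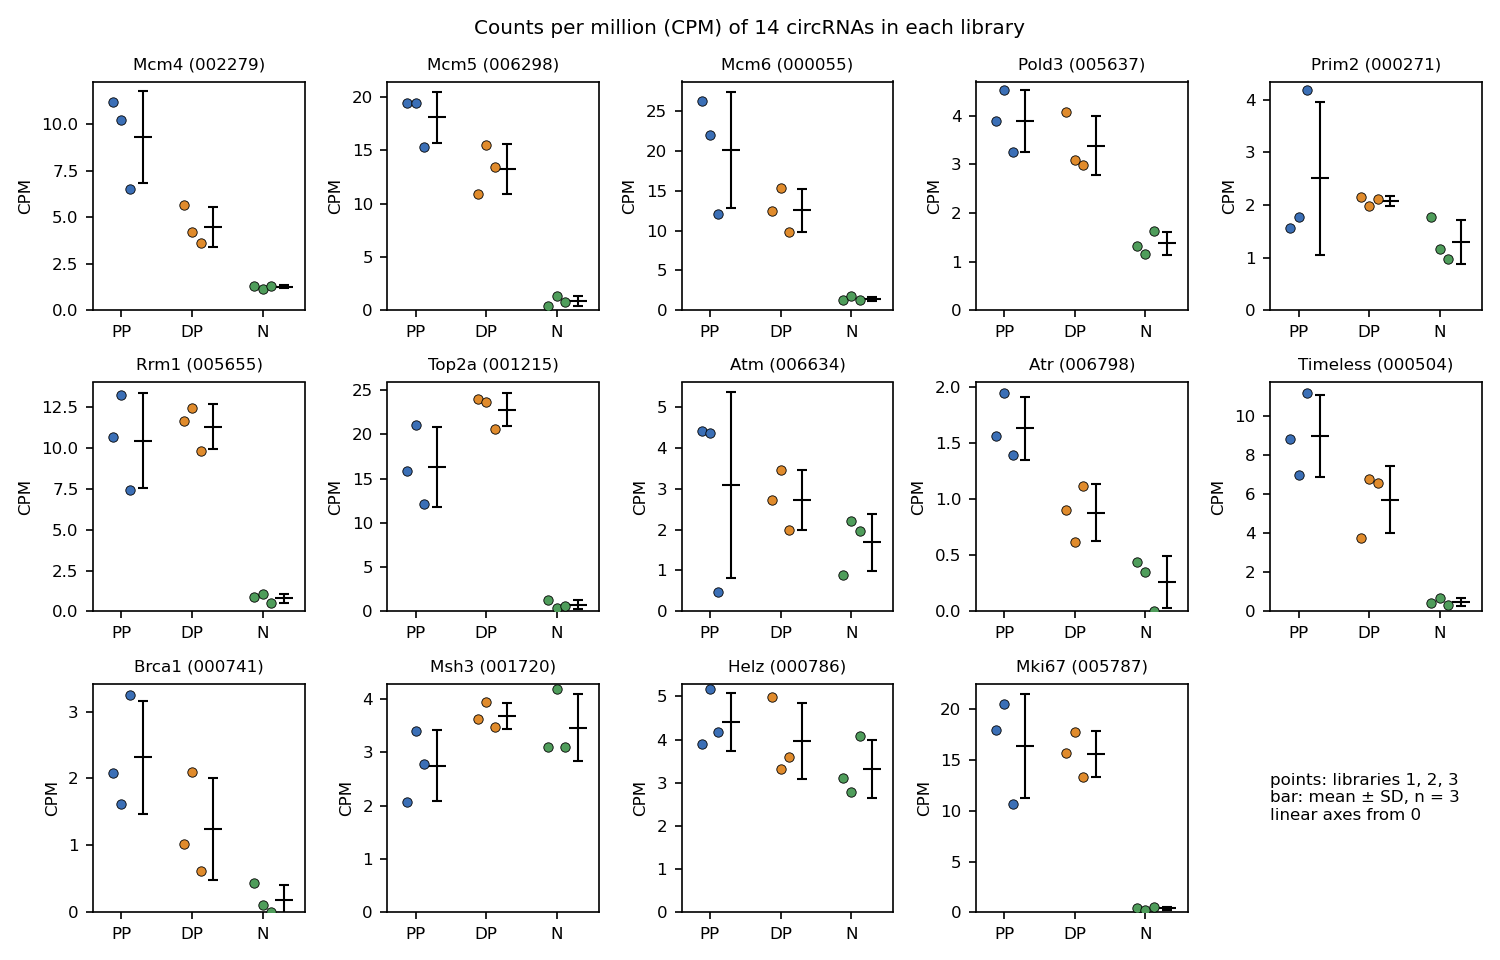
CPM of 14 circRNAs in each library (points; libraries 1 to 3 from left to right) with the mean and SD of each population, on linear axes from 0; numbers after the gene are the last digits of the circRNA's name. The N points of Mcm5, Mcm6, Rrm1, Top2a, Timeless and Mki67 all lie under 2 CPM and below every progenitor point, whereas those of Msh3, Helz and Atm overlap both progenitor groups.

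Checkpoint and fork genes held 12 tested circRNAs, of which 10 fell from DP to N and 10 were lower in N than in PP. These 10 came only from Topbp1, Timeless, Clspn and Dtl, and those of Topbp1 and of Timeless overlapped. The Timeless circRNA (CiCo_mm9_circ_000504, chr10:127678331-127680427, exons 6 to 10 of 29, counted with 2 introns), from a gene whose protein travels with the fork, had 8.83, 6.95 and 11.2 CPM in PP, 3.74, 6.78 and 6.58 CPM in DP and 0.443, 0.698 and 0.327 CPM in N. No population overlapped another, and the step from DP to N was -3.40 ± 0.46 on the log2 scale (edgeR adjusted p = 0.000168). Topbp1, an activator of the ATR kinase, had a lead circRNA with 25.8 ± 9.17 CPM in PP, 18.6 ± 2.93 CPM in DP and 4.11 ± 1.22 CPM in N (SD, n = 3 each). Its 6 circRNAs overlapped in 1 region, may share reads and all fell, by -1.88 to -2.33 on the log2 scale from DP to N.

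Clspn (Claspin, which couples ATR to its effector kinase) and Dtl (a ubiquitin ligase adaptor that acts at the fork) each had 3 counts in all of N. The DP to N ratio was 18.6 (95% counting interval 6.13 to 91.9) for Clspn and 10.9 (3.50 to 54.6) for Dtl, and both passed the test (edgeR adjusted p = 0.000279 and 0.00146).

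Atm and Atr, the kinases at the head of the damage and replication checkpoints, were not called. The lead Atm circRNA (CiCo_mm9_circ_006634, chr9:53294919-53301389, exons 26 to 32 of 64) had 4.42, 4.37 and 0.465 CPM in PP, 2.72, 3.45 and 1.99 CPM in DP and 0.886, 2.21 and 1.96 CPM in N. PP replicate 3 held 1 count and the 3 groups overlapped, with a log2 fold change of -0.88 ± 0.52 between N and PP (edgeR adjusted p = 0.243), which became -1.18 and passed (edgeR adjusted p = 0.0265) without that library. The lead Atr circRNA (CiCo_mm9_circ_006798, chr9:95845507-95847660, exons 43 to 45 of 47) was below the filter, with 1.56, 1.94 and 1.39 CPM in PP, 0.906, 0.617 and 1.12 CPM in DP and 0.443, 0.349 and 0 CPM in N, and its 3 groups did not overlap.

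Homologous recombination genes had 10 circRNAs, of which only those of Brca1 and Exo1 had enough counts to be tested, and both fell. The Brca1 circRNA (CiCo_mm9_circ_000741, chr11:101366631-101369544, exons 15 and 16 of 23), from the gene whose protein promotes repair from the sister chromatid, had 2.08, 1.62 and 3.25 CPM in PP, 1.02, 2.10 and 0.621 CPM in DP and 0.443, 0.116 and 0 CPM in N. N lay below both progenitor groups, which overlapped. With 2 counts in all of N, the PP to N ratio was 17.4 (95% counting interval 4.34 to 152), and the comparison passed (edgeR adjusted p = 0.00334). The call between N and DP (edgeR adjusted p = 0.019) was lost without DP replicate 2 (-2.59 on the log2 scale), N replicate 2 (-3.12) or N replicate 3 (-2.59).

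Exo1, a nuclease that resects DNA ends, had 1 count in all of N and a PP to N ratio of 41.8 (95% counting interval 6.95 to 1705; edgeR adjusted p = 0.0023), and its call between N and DP (edgeR adjusted p = 0.0089) was lost without N replicate 3 (-3.78). The 5 circRNAs of Wrn, a RecQ helicase, and that of Rad50, of the MRE11 complex, were not tested and overlapped between DP and N. Bard1, the partner of BRCA1, and Brip1, its helicase, were not tested either, but all N libraries lay below all progenitor libraries.

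For crosslink repair and damage bypass, 2 of 3 tested circRNAs fell from DP to N and all 3 were lower in N than in PP. Both circRNAs of Rad18, the ubiquitin ligase that marks the sliding clamp, fell, the lead by -1.85 ± 0.39 on the log2 scale (edgeR adjusted p = 0.00397). Fancl, the ligase of the Fanconi anaemia core complex, was lower in N than in PP (-3.74 ± 0.92, edgeR adjusted p = 0.00697), but its PP value was uneven, with 8, 9 and 25 counts, and the 25 came from PP replicate 3, without which the value was -2.45 (edgeR adjusted p = 0.0137).

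Msh3 was the 1 mismatch repair gene with circRNAs, and none of its 6 tested circRNAs passed in any comparison. Its lead circRNA (CiCo_mm9_circ_001720, chr13:93026650-93082641, exons 9 to 18 of 24) had 2.08, 3.40 and 2.79 CPM in PP, 3.62, 3.95 and 3.48 CPM in DP and 3.10, 4.19 and 3.10 CPM in N. N overlapped both progenitor groups, and the log2 fold change was 0.34 ± 0.35 against PP (edgeR adjusted p = 0.53) and -0.05 ± 0.31 against DP. Over the 6, the median log2 fold change was -0.22 from DP to N and -0.05 between N and PP.

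Helz, an RNA helicase with zinc fingers rather than a replication factor, behaved likewise, and none of its 3 tested circRNAs passed. Its lead circRNA (CiCo_mm9_circ_000786, chr11:107454020-107465677, exons 6 to 12 of 33) had 3.90, 5.17 and 4.18 CPM in PP, 4.98, 3.33 and 3.60 CPM in DP and 3.10, 2.79 and 4.08 CPM in N. The 3 groups overlapped (-0.25 ± 0.32 on the log2 scale from DP to N). The end-joining factor Xrcc4 had 1 circRNA, which was below the filter, with 3, 11 and 4 counts in PP, 5, 8 and 1 in DP and 2, 1 and 7 in N.

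Mki67, the proliferation marker Ki-67 of the chromosome surface, had among the largest falls. Its lead circRNA (CiCo_mm9_circ_005787, chr7:142895751-142897468, exons 7 to 10 of 14, counted with 2 introns) had 17.9, 20.5 and 10.7 CPM in PP, 15.7, 17.8 and 13.3 CPM in DP and 0.443, 0.233 and 0.490 CPM in N. PP and DP overlapped, and N, with 6 counts in all, was lower than DP by -5.36 ± 0.46 on the log2 scale (edgeR adjusted p = 1.3e-05). The second Mki67 circRNA (CiCo_mm9_circ_005788) had 43, 43 and 38 counts in DP and none in N, at least 28.1-fold lower. Both circRNAs of Atad2, a chromatin-bound ATPase, also fell, the lead by -2.60 ± 0.45 from DP to N (edgeR adjusted p = 0.000891).

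The DP to N step and the PP to DP step were then set against each other within the same fit. For 15 of the 56 circRNAs the change differed between the steps (edgeR adjusted p under 0.05), against 4.18% of all tested, and in each the second step was the more negative. They were all 4 circRNAs of Top2a, both of Mki67, all 3 of Rrm1, 2 of Pole, and those of Mcm5, Mcm6, Clspn and the lead of Timeless. The difference of steps was -5.61 ± 0.61 on the log2 scale for Top2a and -2.34 ± 0.59 for Mcm6 (edgeR adjusted p = 0.000285 and 0.0376). Mcm4 did not pass (-0.76 ± 0.57, edgeR adjusted p = 0.705). The count was sensitive to single libraries, with 8 without DP replicate 2, DP replicate 3, N replicate 2 or N replicate 3. The share over all tested circRNAs is not given for these fits. Without PP replicate 3 and N replicate 1 together the count was 26, where 14.6% of all tested circRNAs passed.

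Within genes, 46 of the circRNAs, from 16 genes with more than 1 tested circRNA, were compared with the other circRNAs of their gene. None differed, either between N and DP or between N and PP, by edgeR's within-gene test (adjusted p under 0.05), and 0 had an unadjusted p under 0.05 in either comparison. Over all genes 0.0327% and 0.0654% of 3058 circRNAs passed, so the test called almost nothing here. Any shared reads would hold overlapping circRNAs of a gene together in this comparison, and DESeq2 was not run for it.

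**Figure D4:**
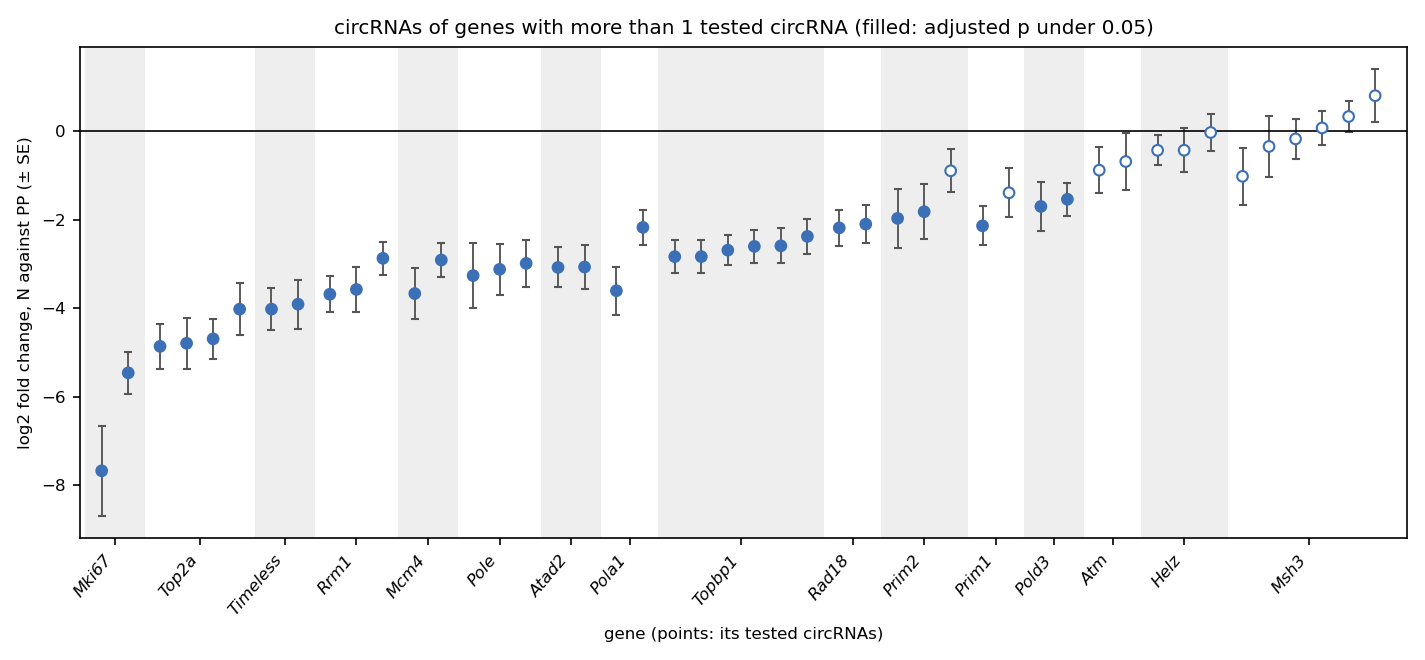
Log2 fold change between N and PP (y axis, with SE) of each tested circRNA of the 16 genes with more than 1, filled where the adjusted p was under 0.05. All circRNAs of Topbp1 and Top2a lie below 0 and are filled, and those of Atm, Helz and Msh3 are open; the lowest point of Mki67 had no count in N.

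Beyond the 58 genes, 153 other replication and repair genes were examined, of which 52 had 93 circRNAs in the table. Of 77 tested circRNAs, 17 (22.1%) fell from DP to N and none rose, where 9.8% of all tested circRNAs were called lower and 9.03% higher, and the median log2 fold change was -0.57. Between N and PP, 22 (28.6%) were lower and 3 (3.90%) higher in N, where 14.4% and 13.6% of all were, and the median was -0.87. For the circRNAs of the 58 genes the shares called lower were 67.9% and 75%. By lead circRNA, 12 of 47 were lower in N than in PP, among them Mms22l, Wee1, Fanci, Wdhd1, Xrcc6, Zranb3, Chaf1b, Mbd4, Mcm9 and Rbbp8. The Mms22l circRNA, from a gene that stabilises stalled forks, had 18.2, 21.0 and 11.2 CPM in PP, 10.6, 10.6 and 9.19 CPM in DP and 1.33, 1.86 and 1.96 CPM in N (-3.24 ± 0.36 between N and PP, edgeR adjusted p = 1.87e-05). That of Trp53bp1, which steers double-strand breaks to end joining, went the other way, with 30.6, 31.2 and 32.1 CPM in PP, 54.6, 40.7 and 55.4 CPM in DP and 78.4, 57.5 and 64.7 CPM in N (1.09 ± 0.29 between N and PP, edgeR adjusted p = 0.0105, lost at 0.72 when scaled to total counts and at 1.03 when only N and PP were fitted). All N libraries were above all PP libraries for Trp53bp1 and below them for Mms22l.

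The promoters of the genes were read from RefSeq (GRCm38.p6, 250 bases before to 50 after the start), which gave 29 promoters for 27 of the 34 genes. The letters TTTCCCGC, TTTCGCGC, TTTGCCGC and TTTGGCGC, which E2F factors are known to bind, were searched on both strands, and matches on opposite strands could overlap. They were found in 11 of the 29 (37.9%), against 2.26% of all 32851 promoters, 4.36% of 2707 promoters of genes with a circRNA and 33.3% of 30 promoters of listed genes without a circRNA. TTTGAA, the core of the cell cycle homology region, was in 10.3%, against 17.9% of all promoters, 10.8% of those of genes with a circRNA and 10% of those of listed genes without one. CCAAT was in 58.6%, against 37.4%, 35.4% and 50%. The promoters of Mcm5 (chr8:75109259-75109558, + strand) and Mcm6 (chr1:128359656-128359955, - strand) are shown because their circRNAs fell together and they held 2 and 3 E2F matches, which are in capitals and partly overlap.
Mcm5: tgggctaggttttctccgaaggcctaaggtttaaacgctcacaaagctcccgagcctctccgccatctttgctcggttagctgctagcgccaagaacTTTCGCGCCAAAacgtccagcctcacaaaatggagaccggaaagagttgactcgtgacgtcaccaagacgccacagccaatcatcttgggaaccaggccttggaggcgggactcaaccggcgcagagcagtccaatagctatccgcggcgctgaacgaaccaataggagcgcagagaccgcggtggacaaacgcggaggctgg
Mcm6: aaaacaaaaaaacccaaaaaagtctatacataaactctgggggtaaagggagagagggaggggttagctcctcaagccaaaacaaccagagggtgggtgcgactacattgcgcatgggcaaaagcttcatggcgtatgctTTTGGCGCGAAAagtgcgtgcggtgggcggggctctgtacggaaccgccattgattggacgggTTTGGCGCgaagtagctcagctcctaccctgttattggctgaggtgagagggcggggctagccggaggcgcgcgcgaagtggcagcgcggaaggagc
Matches were also in the promoters of Msh3 (2), whose circRNAs passed in no comparison, and of Bard1, Cdc6, Clspn, Dtl, Orc1, Pola1, Pold3 and Topbp1. No match was in the promoters of Top2a, Mki67, Rrm1 and Timeless, whose circRNAs fell from DP to N. The promoters of Atm, Helz and Orc2, whose circRNAs were not called, had none either. Whether a match goes with a fall was not tested. A match is a description of the letters and not of binding.

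Circles of marker genes were read as a check of the labels. Of 14 neuronal markers, 7 had circRNAs (Bcl11b the most abundant, Tubb3 and Dcx without), which summed to 7.27, 6.15 and 18.6 CPM in PP, 64.7, 51.9 and 73.2 CPM in DP and 327, 206 and 232 CPM in N. Of 16 radial glia markers, 6 had circRNAs (Ptprz1 the most abundant, Pax6 and Sox2 without), which summed to 223, 231 and 301 CPM in PP, 109, 151 and 122 CPM in DP and 104, 88.1 and 81.8 CPM in N. Both lists separated PP from N in the direction of the labels. Of 8 basal progenitor markers, 2 had circRNAs (Mfng the most abundant, Eomes and Btg2 without), which were highest in DP at 46.8, 51.9 and 53.4 CPM against 14.1 to 34.4 CPM in PP and 12.3 to 17.6 CPM in N. No circRNA was listed for endothelial, pericyte or meningeal markers, 1 of 8 microglial markers (Tgfbr1) had 1.77 to 9.74 CPM across the libraries, and 1 of 5 erythroid markers (Epb4.1) had 16.0 to 31.9 CPM. Among interneuron markers 1 of 11 (Erbb4) had a circRNA, with at most 3.02 CPM in any library. How far the levels of progenitor and neuronal markers bear on the fall of the replication and repair circRNAs was not tested.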

How the data were processed

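Cell populations were compared from the count table of circRNAs that the authors deposited, 9 libraries in all. The deposited values are raw read counts: per the study's methods and the submitters' processing notes, reads were aligned with gsnap to mm9, circRNAs were predicted with find_circ, exons and introns above an RPKM threshold were kept, and featureCounts (Subread 1.6.0) counted reads on them. The deposited starts count from 0 and are given here from 1. CircRNAs were tested with edgeR 4.0.16 (filterByExpr, TMM, quasi-likelihood test, 1 factor for cell type, all 9 libraries, Benjamini-Hochberg over all 4406 tested circRNAs, threshold 0.05), which had been tested on simulated data. The biological coefficient of variation was 0.296. DESeq2 1.42.0, other scalings and filters, the replicate block and left-out libraries were alternatives. CPM used TMM effective library sizes, RPKM is CPM per kilobase of counted length, and SE is the log2 fold change divided by the root of the F statistic. Counting intervals (95%) and the floor of 3 counts cover counting error only. Values in every library are given for lead circRNAs of the 8 genes highest in RPKM, up to 6 per direction with the smallest adjusted p in N against PP or DP, up to 4 without a call that were highest in CPM among those, and Mki67, Top2a, Brca1, Atm and Atr; other named circRNAs were chosen after their values were seen. The members, roles, marker lists and other pathway genes were chosen with earlier results of these data known. Some of the other pathway genes are not reported here by name.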

Additional observations from a re-analysis of the deposited data

How the results depend on the processing

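Counts of calls between N and the progenitors stayed within 1.5 times those reported under each alternative that could be run, although single calls were lost: 34 to 42 circRNAs were called between N and DP (38 as reported) and 28 to 50 between N and PP (42 as reported), all lower in N, with the 28 from a fit of 2 cell types that tested 37 and the 42 and 50 from the fit without a filter, which tested 77. With the replicate block the counts were 36 and 40, and 13 for the difference of steps (15 as reported); same-numbered libraries deviated with correlations of -0.24 to 0.28, so the numbers were not taken to pair libraries. In the fit with at least 10 counts in every library none of the 77 passed the filter, so it gave no value for them. Between DP and PP the count was 0 to 1 with 1 library left out and 10 without PP replicate 3 and N replicate 1. The difference of steps gave 7 with total counts as the scale, 8 to 18 with 1 library left out, and 26 without PP replicate 3 and N replicate 1. The cause was not tested. The share over all tested circRNAs was 4.18% in the reported fit. It is not given for total counts or for the fits without 1 library, so those counts are not read as results about the set. Total counts moved the median of all tested circRNAs to -0.37 between N and DP and between N and PP, and to 0.02 between DP and PP, and 34, 39 and 0 circRNAs of the set were called, the same side as reported. Of all calls the share higher in N fell to 20.6% (N and DP) and 32.5% (N and PP) under that scale, from 48.0% and 48.5%. Over all circRNAs, counts of calls moved by more than 1.5 times in several fits, for example to 1600 between N and DP without both libraries (830 as reported) and to 407 with total counts. Among 18 called fold changes of the 14 circRNAs given in every library, none reversed, and 9 of 304 alternative values lost the call, for Pold3 and Brca1. Of the other called circRNAs, those of Rfc1, Prim1 and Exo1 between N and DP, and 2 of Prim2 and Pold3 CiCo_mm9_circ_005638 between N and PP, also lost the call without 1 library. The uncalled fold change of Msh3 between N and DP reversed to 0.040 without N replicate 3 and to 0.0083 without PP replicate 3 and N replicate 1. Levels rose 28.3 to 29.9 times for all 14 named circRNAs when scaled to counts outside the high-count entries, and the precision was limited by few counts in N, where 11 of the 77 had 1 to 3 counts in all and 3 had none, and by PP replicate 3, which had the fewest counts outside the high-count entries.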
